A study of Mus musculus with 20 samples.

Results

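The lipid-associated macrophage genes examined here were Mmp12, Gpnmb, Trem2, Cd9, Spp1, Lgals3, Fabp5, Pla2g7, Lyz1 and Lyz2. These 10 genes were chosen by their rise in signal between CL and NC livers, as among the largest in the same arrays, or because they are known from lipid-laden macrophages. Of the 10 genes, 9 had a probe set that named no other gene, out of 18193 genes read in this way, and a gene with several such probe sets was read from the brightest. No probe set in the annotation used here named Spp1 alone, so Spp1 was not analysed here. In RefSeq (GRCm38.p6) the measured genes lie at chr17:48346401-48352276 (Trem2), chr6:49036518-49058182 (Gpnmb), chr6:125460266-125494760 (Cd9), chr9:7344397-7360461 (Mmp12), chr14:47373860-47386167 (Lgals3), chr17:43567994-43612202 (Pla2g7), chr3:10012585-10016610 (Fabp5), chr10:117287795-117292868 (Lyz1) and chr10:117277541-117282272 (Lyz2).

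The measurements came from livers of 20 male C57BL/6J mice, with 1 array per mouse and 5 mice per group. The CL + AX group ate a diet rich in cholesterol, cholate and fat (CL diet) that contained 0.02% astaxanthin, a carotenoid. The CL + VE group ate the CL diet with 0.02% vitamin E, the CL group ate the CL diet alone, and the NC group ate normal chow (CRF-1). Fat supplied 60% of the calories of the CL diet, to which cholesterol (1.25%) and the bile salt sodium cholate (0.5%) had been added. The mice were 7 weeks old when the diets began, stayed on them for 12 weeks and went without food for the last 2 h. The supplements were given in the CL diet only, so they were compared with CL and not with NC fed the same supplement.

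When lipid builds up in a tissue, recruited macrophages can take on a state with a high output of genes for lipid uptake, lysosomal breakdown and matrix remodelling. In mouse adipose tissue and in fatty liver such cells are known as lipid-associated macrophages, and the surface receptor TREM2 is needed for much of this state in mouse adipose tissue. The liver also holds Kupffer cells, its resident macrophages, which carry their own markers such as Clec4f, Timd4 and Vsig4.

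Values are log2 signals after quantile normalization, so a difference of 1 is a doubling of signal, and a level on this scale can be compared between mice but not between genes. The array holds whole liver, so more macrophages and more RNA per macrophage cannot be told apart in any of the values. Most hepatocyte markers were strong in every group: the mean log2 signal of 9 such markers was 12.46 in CL + AX, 12.43 in CL + VE, 12.49 in CL and 12.60 in NC livers. Ass1 was weaker, with a mean of 6.47 over all arrays. Single markers differed from chow: CL minus NC was -0.59 for Tat and 0.31 for Fgb, and CL + VE minus NC was -0.98 for Ass1.

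Some arrays stood apart before any gene was compared. The log2 ratio of the 3′ to the 5′ probe sets of Dap, a spiked-in labelling control, was 2.26 in CL + VE replicate 5 and 0.99 to 1.16 in the other CL + VE arrays. It was 1.05 to 1.31 in CL + AX and 1.12 to 1.45 in CL arrays, against 2.97 to 3.39 in NC arrays. The same ratio for Gapdh, a housekeeping gene, was -0.18 to -0.05 in CL + AX, -0.16 to 0.11 in CL + VE, -0.26 to -0.09 in CL and 0.38 to 0.78 in NC arrays. For Actb, another such gene, it was 1.07 to 1.23 in CL + AX, 1.32 to 1.51 in CL + VE, 1.01 to 1.25 in CL and 1.54 to 1.95 in NC arrays, so the CL + VE range lay wholly above those of CL + AX and CL. These ratios reflect RNA and labelling quality. All 3 were higher in the chow group than in CL livers, and that of Actb was higher in CL + VE than in CL + AX and CL livers, and their part in the differences from NC and in both comparisons with CL + VE was not tested. Because CL + VE replicate 5 was also the highest mouse of its group in the genes described here, the comparisons of the 9 genes with the CL + VE group are given with and without it.

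Of the 9 measured genes 8 had far higher means in each of the 3 CL-fed groups than in NC livers. The mean log2 signal of the 9 genes was 9.47 ± 0.76 in CL + AX, 8.61 ± 1.02 in CL + VE, 9.13 ± 0.93 in CL and 5.79 ± 0.44 in NC livers (SD, n = 5 mice each). Without CL + VE replicate 5 the CL + VE mean was 8.16 ± 0.23. The group means ran in the order CL + AX, CL, CL + VE, NC for 7 of 9 genes. For Pla2g7 the CL mean was above that of CL + AX, and for Fabp5 the NC mean lay between those of CL + AX and CL, but above both without NC replicate 5. The first 3 groups in this order overlapped for every gene, as described below, and none of the differences between them passed the test.

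**Figure D1:**
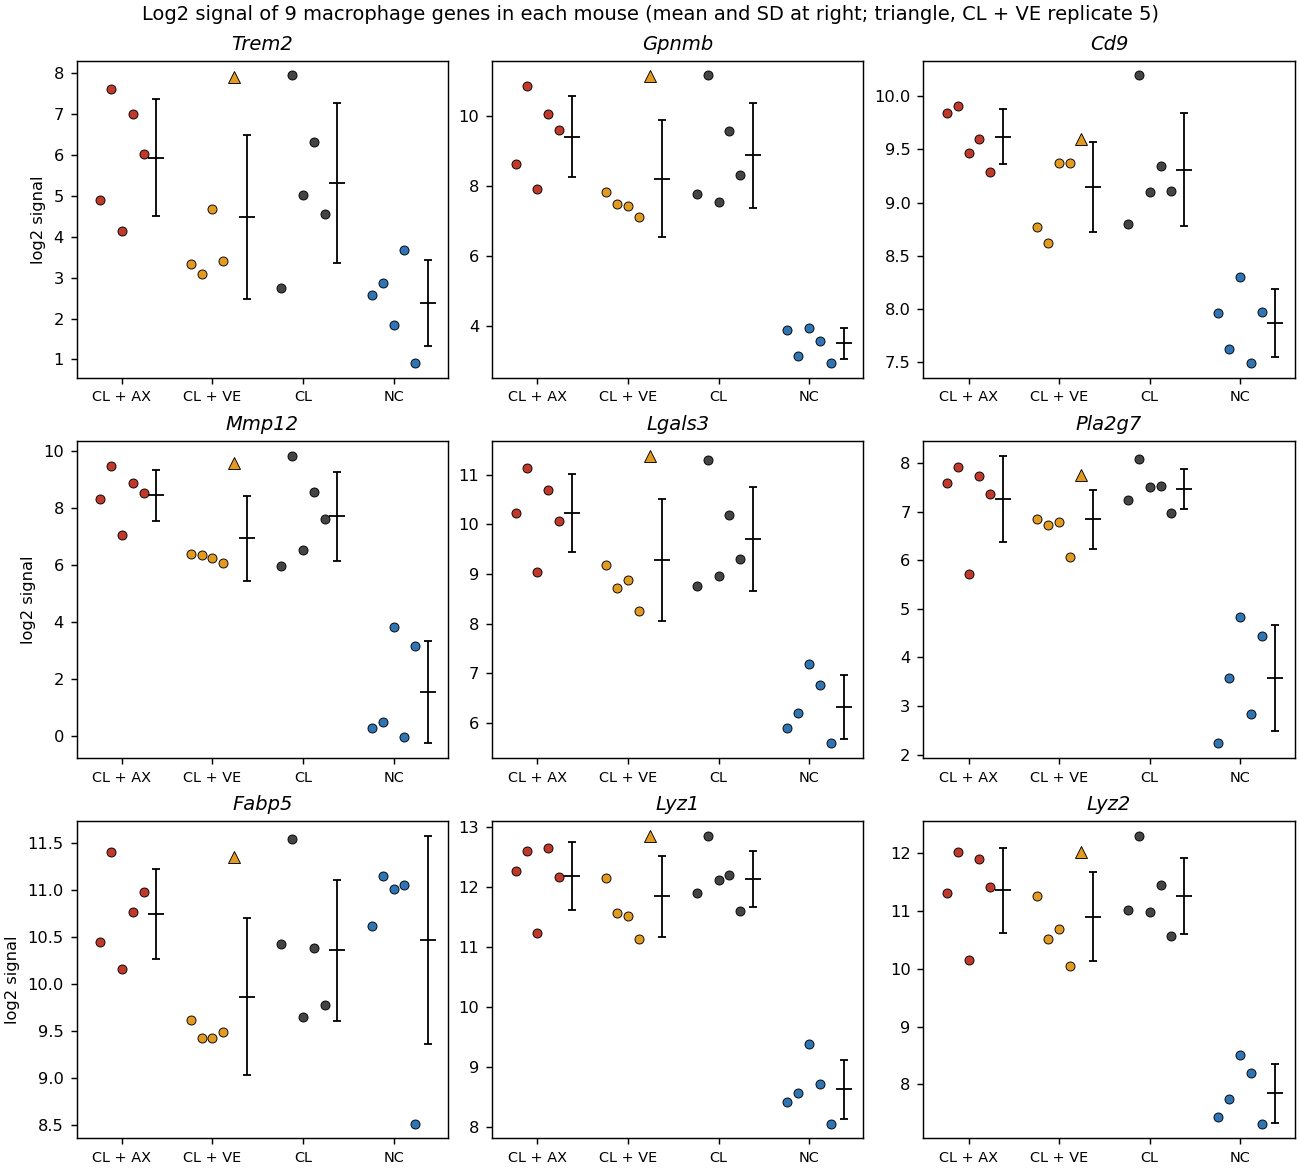
Log2 signal (vertical axis) of each of 9 genes in each of 20 mice (points), by diet group (horizontal axis), with the mean and SD of the group as a bar at the right. The triangle is CL + VE replicate 5, which is the highest CL + VE mouse in all 9 panels, and the NC mean is the lowest in every panel except that of Fabp5.

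Trem2, the lipid-sensing receptor of the group, varied widely among mice on the same diet. Its log2 signal was 4.90, 7.62, 4.13, 7.00 and 6.02 in CL + AX livers and 3.34, 3.08, 4.68, 3.42 and 7.90 in CL + VE livers. In CL livers it was 2.74, 7.94, 5.01, 6.32 and 4.56, against 2.57, 2.87, 1.83, 3.69 and 0.90 in NC livers. Every CL + AX mouse was above every NC mouse, whereas 1 of the 5 CL mice and 3 of the 5 CL + VE mice lay within the NC range. The pooled SD of Trem2 within the CL-fed groups was 1.82, against a median of 0.34 over all genes. A second, dimmer Trem2 probe set did not follow the first: its CL minus NC difference was 0.28, against 2.94 for the probe set used.

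Gpnmb encodes a lysosomal and cell surface glycoprotein made by macrophages that handle much lipid. The log2 signal of Gpnmb was 8.62, 10.86, 7.91, 10.05 and 9.60 in CL + AX livers and 7.83, 7.48, 7.43, 7.11 and 11.14 in CL + VE livers. It was 7.76, 11.15, 7.55, 9.56 and 8.32 in CL livers, against 3.90, 3.16, 3.96, 3.58 and 2.94 in NC livers. On this probe set no CL-fed mouse came near the chow range. Within the CL-fed groups the mice formed a wide band, and 4 of the 5 CL + VE mice sat at its low end, below every CL + AX mouse. A second, much dimmer Gpnmb probe set gave -1.27 to 3.86 in CL livers, which overlapped the -2.33 to 1.18 of NC livers. Its mean was 2.65 in CL + AX, 1.88 in CL + VE, 1.26 in CL and -1.09 in NC livers, so CL + VE was above CL there.

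Cd9, a tetraspanin that organizes membrane complexes and is made by many cell types besides macrophages, differed least between CL-fed and chow livers among the genes that differed. Its log2 signal was 9.29 to 9.91 in CL + AX, 8.62 to 9.60 in CL + VE and 8.79 to 10.20 in CL livers, against 7.49 to 8.30 in NC livers. The ranges of the CL-fed groups overlapped each other and lay wholly above the NC range.

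Mmp12 encodes macrophage metalloelastase, a secreted enzyme that cuts elastin and other matrix proteins. In CL + AX livers Mmp12 gave log2 signals of 8.34, 9.48, 7.07, 8.90 and 8.52, and in CL + VE livers 6.40, 6.36, 6.27, 6.10 and 9.59. CL livers gave 5.99, 9.85, 6.55, 8.58 and 7.63, against 0.31, 0.49, 3.83, -0.03 and 3.16 in NC livers. The difference from chow was the largest of the 9 genes, and it rests on chow signals that were very low: as deposited, on the linear scale, the NC values were 0.86, 1.21, 11.92, 0.68 and 8.19. The size of a fold change against so low a level is therefore uncertain. Apart from replicate 5, the CL + VE mice lay close together (SD 0.14), against SDs of 0.89 in CL + AX and 1.55 in CL livers.

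The stretch of 250 bases before the RefSeq start of Mmp12 (GRCm38.p6, chr9:7344147-7344396, plus strand) and the same stretch of Trem2 (chr17:48346151-48346400, plus strand) are shown because these genes hold motifs of transcription factors active in macrophages. Capitals in Mmp12 mark AGGAAGT, the core that the myeloid factor PU.1 binds, read on the opposite strand. Capitals in Trem2 mark TGANTCA, the site of AP-1 factors.
Mmp12: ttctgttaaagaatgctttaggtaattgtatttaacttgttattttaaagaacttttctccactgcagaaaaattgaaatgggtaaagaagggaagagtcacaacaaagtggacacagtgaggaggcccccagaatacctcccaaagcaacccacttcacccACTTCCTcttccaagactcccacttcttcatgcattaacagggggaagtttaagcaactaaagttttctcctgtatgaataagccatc
Trem2: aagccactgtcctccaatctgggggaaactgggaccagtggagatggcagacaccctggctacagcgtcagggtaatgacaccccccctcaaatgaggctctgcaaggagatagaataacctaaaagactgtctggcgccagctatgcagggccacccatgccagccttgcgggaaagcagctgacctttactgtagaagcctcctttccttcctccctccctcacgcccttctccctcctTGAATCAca
Counted from the start, with negative numbers before it, the PU.1 letters span -88 to -82 in Mmp12 and the AP-1 letters -9 to -3 in Trem2.

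Lgals3 encodes galectin-3, a secreted lectin that binds sugars on cells and matrix and is plentiful in macrophages. Its log2 signal was 10.23, 11.15, 9.03, 10.69 and 10.08 in CL + AX livers and 9.17, 8.72, 8.88, 8.26 and 11.39 in CL + VE livers. It was 8.76, 11.30, 8.96, 10.20 and 9.31 in CL livers, against 5.89, 6.19, 7.18, 6.76 and 5.58 in NC livers. As for Gpnmb, CL replicate 2 and CL + VE replicate 5 were the highest of the 20 mice.

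Pla2g7 encodes the secreted phospholipase that inactivates platelet-activating factor and cleaves oxidized phospholipids. Its log2 signal was 7.59, 7.93, 5.72, 7.74 and 7.35 in CL + AX, 6.07 to 7.75 in CL + VE and 6.97 to 8.08 in CL livers, against 2.23 to 4.83 in NC livers. One CL + AX mouse, replicate 3, lay apart from the other CL + AX mice, and it was also the lowest mouse of its group for 8 of 9 genes.

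Fabp5, a chaperone that carries fatty acids within macrophages and many other cells, did not follow the others. Its log2 signal was 10.45, 11.40, 10.16, 10.76 and 10.97 in CL + AX livers and 9.62, 9.43, 9.43, 9.50 and 11.36 in CL + VE livers. It was 10.43, 11.54, 9.65, 10.39 and 9.78 in CL livers, against 10.61, 11.15, 11.01, 11.05 and 8.52 in NC livers. The ranges of CL-fed and chow mice overlapped, and the CL minus NC difference was -0.11, or -0.60 without NC replicate 5. Without that mouse CL + AX minus NC was -0.21, against 0.28 with it, and CL + VE minus NC was -1.09, against -0.60. Fabp5 was thus included as a known lipid-associated macrophage gene and not for a rise in these arrays. Its second probe set gave a CL minus NC difference of -0.0069.

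Lyz1 and Lyz2 encode lysozymes that break bacterial cell walls, with Lyz2 the usual macrophage form and Lyz1 known from Paneth cells of the mouse intestine. The log2 signal of Lyz2 was 11.31, 12.02, 10.16, 11.89 and 11.41 in CL + AX livers and 11.25, 10.51, 10.68, 10.04 and 12.02 in CL + VE livers. In CL livers Lyz2 gave 11.01, 12.30, 10.98, 11.44 and 10.56, against 7.43, 7.76, 8.51, 8.20 and 7.33 in NC livers. The probe set chosen for Lyz1 gave 11.23 to 12.64 in CL + AX, 11.13 to 12.85 in CL + VE and 11.59 to 12.85 in CL livers, against 8.06 to 9.39 in NC livers. On these probe sets both genes thus separated CL-fed from chow mice completely.

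The 3 Lyz1 probe sets disagreed. Those with the suffix _x_at, which the maker of the array gives to sets with probes that can bind other transcripts too, were higher in CL than in NC livers by 3.50 and 4.75. The third, without that suffix, had a mean log2 signal of 3.67 in CL + AX, 3.54 in CL + VE, 3.25 in CL and 2.97 in NC livers, with overlapping ranges. Across the 20 mice, after subtraction of each group's mean, the chosen Lyz1 probe set correlated with Lyz2 at r = 0.97 (rho = 0.96), whereas the third set correlated with Lyz2 at r = -0.17 (rho = -0.15). The chosen Lyz1 signal could therefore not be told apart from Lyz2, and 1 of the 9 values below may be a repeat of another. The points of these correlations share their arrays and their labelling.

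**Figure D2:**
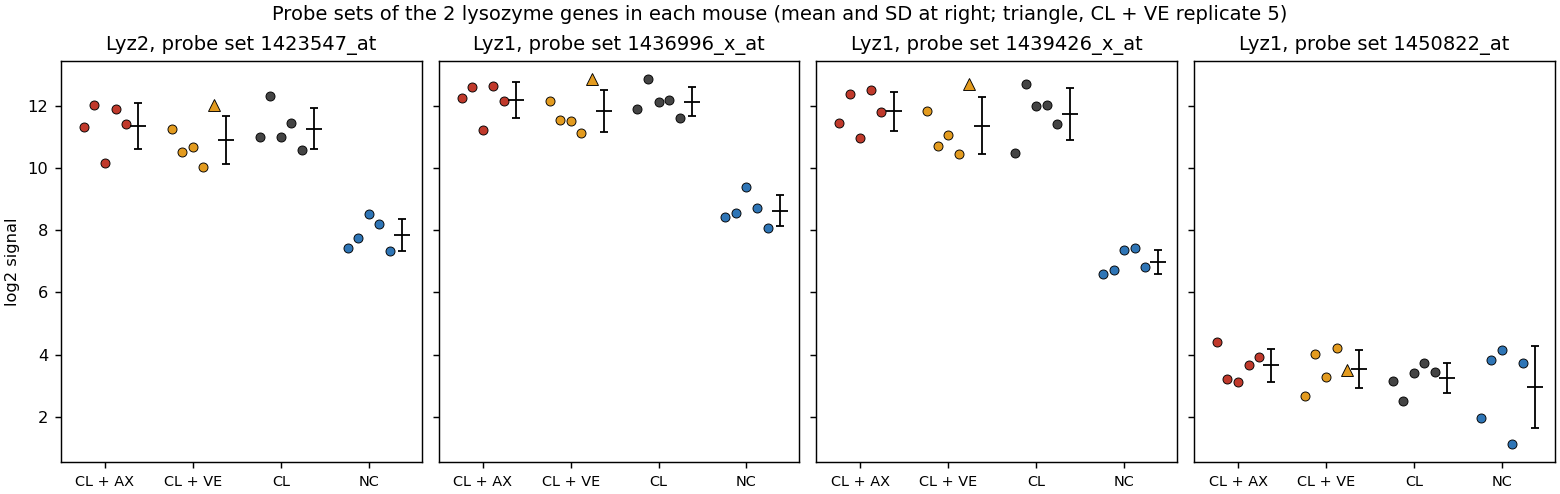
Log2 signal (vertical axis) of the Lyz2 probe set and the 3 Lyz1 probe sets in each mouse, by diet group (horizontal axis), with mean and SD as bars. In the first 3 panels all CL-fed mice lie above all NC mice, and in the last panel the groups overlap, with all values between 1.14 and 4.40.

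The 2 genes are neighbours on chromosome 10, on the minus strand, with 5522 bases between the Lyz2 start and the Lyz1 end. The 250 bases before each RefSeq start (GRCm38.p6, chr10:117292869-117293118 for Lyz1 and chr10:117282273-117282522 for Lyz2) are shown because they are near copies, with 205 of 260 aligned positions identical (78.8%). Capitals mark the PU.1 core AGGAAGT on the opposite strand.
Lyz1: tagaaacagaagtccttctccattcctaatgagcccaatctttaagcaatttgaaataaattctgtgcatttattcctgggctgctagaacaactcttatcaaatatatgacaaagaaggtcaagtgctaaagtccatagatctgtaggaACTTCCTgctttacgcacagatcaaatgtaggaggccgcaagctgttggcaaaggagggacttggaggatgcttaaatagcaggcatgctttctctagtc
Lyz2: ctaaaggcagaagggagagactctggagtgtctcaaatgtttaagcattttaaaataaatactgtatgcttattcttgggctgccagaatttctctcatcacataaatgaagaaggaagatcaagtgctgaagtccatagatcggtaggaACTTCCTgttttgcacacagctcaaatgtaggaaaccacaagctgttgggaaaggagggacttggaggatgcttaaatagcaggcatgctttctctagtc
The capitals span -100 to -94 in both genes.

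Promoter windows of 300 bases, 250 before to 50 after a start, were on hand for 9 of the 10 genes (11 windows, since Mmp12 and Spp1 have 2 each, and none for Fabp5). Both strands were searched. The PU.1 core AGGAAGT was in 4 of the 11 windows (Mmp12, Lyz1, Lyz2 and Spp1), against 9.35% of all 32851 windows. The AP-1 letters TGANTCA were in 3 of the 11 (Mmp12, Gpnmb and Trem2), against 7.81% of all windows. The C/EBP letters TTNNGCAA were in 4 of the 11 (Mmp12, Trem2, Spp1 and Lyz1), against 10.8% of all windows. The MITF and TFE letters TCATGTG were in 1 window (Mmp12), against 3.77%, and the E-box CACGTG was in none, against 7.15%. The NF-kappaB motif was in 1 window (Cd9), against 1.63%, and TATAAA was in 2 (Mmp12 and Spp1), against 13.6%. No 2 of these matches overlapped. With 11 windows, 2 of which are near copies, these counts describe the letters present and nothing more.

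The difference between CL and NC livers served to choose the genes, so it is given as a description without a test. CL minus NC was 6.17 for Mmp12, 5.36 for Gpnmb, 3.88 for Pla2g7, 3.50 for Lyz1, 3.41 for Lyz2, 3.39 for Lgals3, 2.94 for Trem2, 1.44 for Cd9 and -0.11 for Fabp5. In fold terms Mmp12 signal was 71.9-fold and Cd9 signal 2.72-fold higher in CL than in NC livers. For 7 of 9 genes the CL range lay wholly above the NC range (8.07% of all genes), from which nothing is read. The median difference over the 9 genes was 3.41, against -0.04 over all genes.

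The supplemented groups were compared with the same chow mice, so their values share the NC arrays. CL + AX minus NC was 6.91 for Mmp12, 5.896 for Gpnmb, 3.92 for Lgals3, 3.69 for Pla2g7, 3.56 for Trem2, 3.55 for Lyz1, 3.51 for Lyz2, 1.75 for Cd9 and 0.28 for Fabp5. CL + VE minus NC was 5.39 for Mmp12, 4.69 for Gpnmb, 3.26 for Pla2g7, 3.21 for Lyz1, 3.05 for Lyz2, 2.96 for Lgals3, 2.11 for Trem2, 1.28 for Cd9 and -0.60 for Fabp5. With either supplement in the diet, the 8 genes that were higher in CL than in NC livers thus had means far above chow. For all of these 8 genes but Trem2 every supplemented mouse was above every chow mouse, and for Trem2 this held with astaxanthin only (8 of 9 genes in CL + AX livers, against 8.32% of all genes, and 7 of 9 in CL + VE livers, against 7.04%). Nothing is read from these shares. Leaving out CL + VE replicate 5 gave a CL + VE minus NC difference of 4.73 for Mmp12, 3.95 for Gpnmb, 3.03 for Pla2g7, 2.96 for Lyz1, 2.78 for Lyz2, 2.44 for Lgals3, 1.26 for Trem2, 1.17 for Cd9 and -0.97 for Fabp5.

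The first question was whether astaxanthin changed these genes in CL-fed livers. Means were higher in CL + AX than in CL livers for 8 of 9 genes (51.5% of all genes were higher), and the median log2 fold change was 0.39, against 0.01 over all genes. None of the 9 passed the test (limma with Benjamini-Hochberg adjustment over all 45037 probe sets; 0% of all genes passed), and none had an unadjusted p under 0.05 (8.05% of all genes did). The CL arrays in this comparison are among those that chose the genes. The estimates ran from -0.20 for Pla2g7 (SE 0.43, adjusted p = 0.972) to 0.74 for Mmp12 (SE 0.80, adjusted p = 0.922). For Trem2 the estimate was 0.62, with a 95% confidence interval of -1.27 to 2.51, which spans both a clear fall and a rise of several fold. Cd9 was the most precise, at 0.31 with an interval of -0.15 to 0.77. Lyz1 and Lyz2 were at 0.05 and 0.10, and under median centring they were at -0.13 and -0.08. None of the 9 genes separated CL + AX from CL mice (1.96% of all genes did).

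Vitamin E was compared with the same CL arrays, which both supplement comparisons therefore share. All 9 genes had lower means in CL + VE than in CL livers (44% of all genes were lower), with a median log2 fold change of -0.49, against 0.03 over all genes. None passed the adjusted test (0% of all genes did), and none had an unadjusted p under 0.05 (7.55% of all genes did). The estimates ran from -0.83 for Trem2 (SE 0.91, adjusted p = 0.899) to -0.16 for Cd9 (SE 0.22, adjusted p = 0.928). For Pla2g7, which had the smallest p of the 9, the estimate was -0.63 with an interval of -1.52 to 0.27. None of the 9 genes separated CL + VE from CL mice (1.59% of all genes did). These values lean on single mice. Without CL + VE replicate 5 the difference of the 9-gene mean was -0.96, against -0.51 with it, and without CL replicate 2, the highest CL mouse for all 9 genes, it was -0.15. Without CL + VE replicate 5, Gpnmb stood at -1.41 (unadjusted p = 0.024, adjusted p = 0.515) and Lgals3 at -0.95 (unadjusted p = 0.0438, adjusted p = 0.603). Those 2 were the only genes of the 9 with an unadjusted p under 0.05 there (8.42% of all genes in either direction, 3.02% lower), and none passed the adjusted test.

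The 2 supplements were then set against each other, a comparison whose means hold neither CL nor NC arrays, although the normalization and the spread in the fit come from all 20. All 9 genes had higher means in CL + AX than in CL + VE livers (46.1% of all genes were higher), and the median log2 fold change was 0.88, against -0.02 over all genes. The estimates were 1.52 for Mmp12 (SE 0.80), 1.45 for Trem2 (SE 0.91), 1.21 for Gpnmb (SE 0.69), 0.95 for Lgals3 (SE 0.52), 0.88 for Fabp5 (SE 0.45), 0.47 for Cd9 (SE 0.22), 0.45 for Lyz2 (SE 0.37), 0.43 for Pla2g7 (SE 0.43) and 0.34 for Lyz1 (SE 0.30). Cd9 alone had an unadjusted p under 0.05 (limma, unadjusted p = 0.0431, adjusted p = 0.541, and 10.2% of all genes were under 0.05). None of the 9 passed the adjusted test (0% of all genes did). None of the 9 genes separated the 2 groups (2.53% of all genes did). CL + VE replicate 5 reached the CL + AX range each time, and for 6 of 9 genes other CL + VE mice did too, the exceptions being Mmp12, Gpnmb and Fabp5.

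Without CL + VE replicate 5 the same comparison gave 2.31 for Trem2, 2.18 for Mmp12, 1.94 for Gpnmb, 1.48 for Lgals3 and 1.25 for Fabp5, and the difference of the 9-gene mean was 1.30, against 0.86 with that mouse. An unadjusted p under 0.05 (limma) was then found for 8 of 9 genes (12.6% of all genes in either direction, 4.73% higher), all but Pla2g7. None of the 9 passed the adjusted test there either, the lowest adjusted p being 0.203 for Gpnmb and 0.204 for Lgals3. The left-out mouse was the highest CL + VE mouse for all 9 genes, so leaving it out had to widen these differences. These p values are therefore no separate evidence. With CL + AX replicate 2 left out instead, the difference of the 9-gene mean was 0.64. CL + VE replicate 5 had the high signals described above and the Dap ratio of 2.26, and the part of the labelling in its high signals was not tested. Its Gapdh ratio was 0.11, against -0.16 to 0.07 in the other CL + VE arrays, and its Actb ratio was 1.46, in a group whose Actb ratios were all above those of CL + AX and CL arrays.

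**Figure D3:**
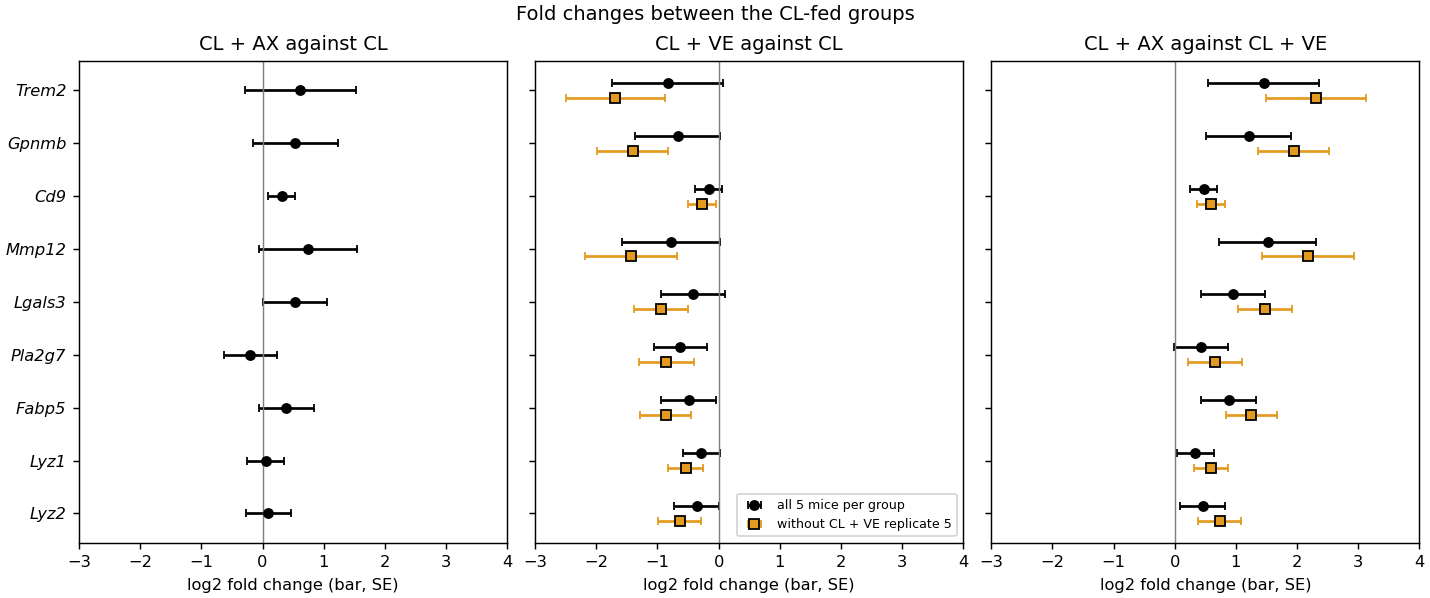
Log2 fold change (horizontal axis) with SE (bars) of 9 genes (vertical axis) in 3 comparisons among CL-fed groups, with all mice (circles) and without CL + VE replicate 5 (squares). With all mice, 8 of 9 estimates are above 0 for CL + AX against CL, 9 of 9 are below 0 for CL + VE against CL, and 9 of 9 are above 0 for CL + AX against CL + VE.

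The genes moved together from mouse to mouse within a diet. After subtraction of each group's mean, all 36 pairs of the 9 genes correlated above 0 over the 20 mice, with r between 0.22 and 0.97 (median 0.72) and rho between 0.27 and 0.96. Without CL + VE replicate 5 the range of r was 0.07 to 0.97. The closest pairs were Lyz1 with Lyz2 at 0.97, Gpnmb with Lgals3 at 0.94 and Lgals3 with Lyz2 at 0.93. The loosest were Fabp5 with Pla2g7 at 0.22 and Mmp12 with Fabp5 at 0.31. CL + AX replicate 2 was the highest mouse of its group for 8 of 9 genes, CL replicate 2 for 9 of 9 and NC replicate 3 for 7 of 9. These correlations describe arrays that share a liver and a labelling, and the genes were chosen together.

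**Figure D4:**
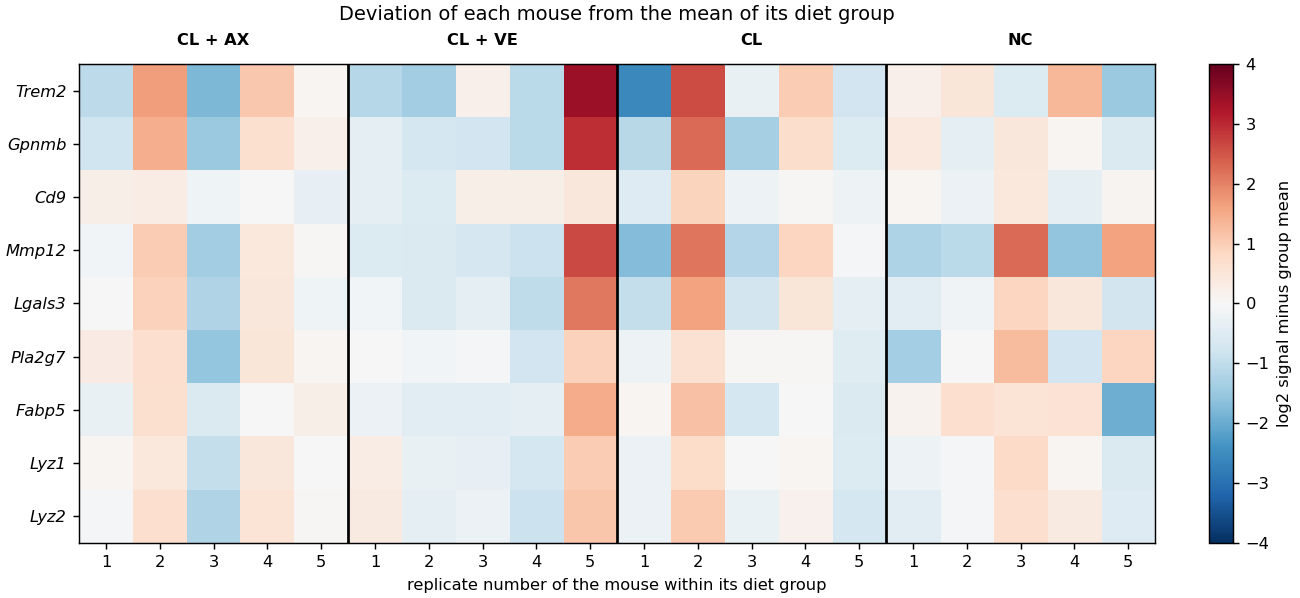
Colour scale of the log2 signal of each mouse (columns, by diet group and replicate number) minus the mean of its group, for 9 genes (rows). The columns of CL + VE replicate 5 and CL replicate 2 are red (above the mean) for every gene, and that of CL + AX replicate 3 is blue (below it).

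Of 11389 other genes at or above the median signal, the 8 whose deviations were most like the 9-gene mean over the 20 mice were Ctsd (r = 0.96), Gngt2 (0.95), Fcgr1 (0.95), Clec7a (0.95), Ccl6 (0.94), Il10rb (0.94), Cd84 (0.94) and Ywhah (0.94). Without the 2 mice farthest from the middle, CL + VE replicate 5 and CL replicate 2, r was between 0.86 for Ywhah and 0.92 for Il10rb. Ctsd encodes cathepsin D, a lysosomal protease, Fcgr1 a high-affinity receptor for antibodies, and Clec7a dectin-1, a receptor for fungal sugars. Ctsd did not pass between CL and NC livers, at 0.50 (SE 0.20, adjusted p = 0.0892).

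Other genes of the lipid-associated programme, from a list of 36, were read for 33. Between CL and NC livers 17 of 33 rose and 1 fell, and 15 did not pass, with a median log2 fold change of 0.52, against -0.04 over all genes (12% of all genes rose). The risen genes included Lpl, which frees fatty acids from lipoproteins, at 2.81 (SE 0.24, adjusted p = 1.08e-07), Abcg1, a cholesterol exporter, at 1.51 (SE 0.18, adjusted p = 4.08e-06), and Ctss, a lysosomal protease, at 2.40 (SE 0.32, adjusted p = 2.01e-05). Nceh1, which splits stored cholesterol esters, fell by 0.69 (SE 0.14, adjusted p = 0.00116). Apoe, a lipoprotein component that hepatocytes also make in quantity, did not pass at 0.0041 (adjusted p = 0.973) nor did Lipa, the lysosomal acid lipase, at 0.09 (adjusted p = 0.663). None of the 33 passed the adjusted test between the CL-fed groups, and 1, the protease inhibitor Cstb, had an unadjusted p under 0.05 for CL + AX against CL + VE (log2 fold change 0.36, limma adjusted p = 0.49, and 10.2% of all genes were under 0.05). With CL + VE replicate 5 left out, 12 of the 33 had an unadjusted p under 0.05 in that comparison, all higher in CL + AX livers, and none passed the adjusted test. Of all genes 12.6% were under 0.05 there, 4.73% being higher.

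TREM2 has no signalling tail of its own and works through the adaptor TYROBP, the kinase SYK and the phospholipase PLCG2, and the proteases ADAM10 and ADAM17 shed it from the cell surface. Of 14 ligands, adaptors, relatives and downstream genes, 6 rose between CL and NC livers and none fell (12% of all genes rose and 11.3% fell). Tyrobp rose by 2.54 (SE 0.39, adjusted p = 7.95e-05), Plcg2 by 1.35, Syk by 1.05, Adam17 by 0.67 and Adam10 by 0.55, and Ms4a7, which lies outside the pathway proper, by 1.84. The second adaptor Hcst (-0.16, adjusted p = 0.763) and the relatives Trem1 (-0.26, adjusted p = 0.56) and Trem3 (-0.04, adjusted p = 0.963) did not pass. No gene of this list passed between the CL-fed groups, and none had an unadjusted p under 0.05 in any of those 3 comparisons.

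Spp1 itself was not read, but the receptors of its product osteopontin were. Of 8 receptor genes 4 rose between CL and NC livers (12% of all genes rose): Cd44 by 2.34 (SE 0.27, adjusted p = 4.08e-06), Itga9 by 0.997, Itga4 by 0.95 and Itgav by 0.43. None passed between the CL-fed groups, and 1, Itgb3, had an unadjusted p under 0.05 for CL + AX against CL + VE (log2 fold change 0.74, and 10.2% of all genes were under 0.05). Of 11 further tetraspanins, the family of Cd9, 3 rose (Cd53 by 2.62, Tspan14 by 0.80 and Tspan3 by 0.58) and Tspan31 fell by 0.33.

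Among relatives of the secreted and carrier proteins, 6 of 13 matrix metalloproteinase and inhibitor genes rose between CL and NC livers and none fell (12% of all genes rose). Mmp13, a collagenase, rose by 2.88 (SE 0.73, adjusted p = 0.00751) and Timp1, an inhibitor, by 2.15 (SE 0.41, adjusted p = 0.000695), whereas Mmp9, a gelatinase, gave 0.99 (SE 0.61, adjusted p = 0.308). Fabp7, Fabp2 and Fabp4 rose by 2.25, 0.94 and 0.82, and Fabp1, the main form of hepatocytes, gave -0.02 (adjusted p = 0.83), so 3 of 6 relatives of Fabp5 rose. Of 6 genes that make up other galectins and the galectin-3 binding protein, Lgals9 rose by 1.14 and Lgals3bp by 0.62, and Lgals4 fell by 0.92. Among 5 genes for the handling of platelet-activating factor, Pafah2 fell by 0.46 and none rose. Between the CL-fed groups none of these passed the adjusted test. For CL + AX against CL + VE, Pafah2 (-0.33, limma unadjusted p = 0.00214, adjusted p = 0.253) and 1 of the 13 metalloproteinase and inhibitor genes were lower at an unadjusted p under 0.05. Of all genes 6.59% were lower there. For CL + AX against CL, Lgals4 (-0.23, adjusted p = 0.686) and 1 of those 13 genes were lower at that threshold, against 4.02% of all genes.

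Markers of other cells were read beside the 9 genes. Of 15 markers of macrophages and monocytes in general, 13 were called higher in CL than in NC livers, 0 lower, and the median was 2.02. Of all genes 12% were called higher. Ccr2, the chemokine receptor of recruited monocytes, rose by 2.99 (SE 0.35, adjusted p = 4.56e-06), Cd68 by 2.44, Csf1r by 1.80 and Adgre1 by 1.42. The mean log2 signal of this list was 7.13 to 8.42 in CL + AX, 7.06 to 8.52 in CL + VE and 7.26 to 8.70 in CL livers, against 5.44 to 6.27 in NC livers. Among 12 markers of Kupffer cells 10 were called higher and 0 lower (median 2.00). Marco, a scavenger receptor, rose by 3.09, Vsig4, a complement receptor, by 2.33, Cd5l by 1.99 and Clec4f by 1.22, whereas Timd4 gave 1.33 (adjusted p = 0.0555). The mean of the Kupffer markers was 9.06 to 9.71 in CL + AX, 8.80 to 9.88 in CL + VE and 8.78 to 9.88 in CL livers, against 6.79 to 8.58 in NC livers. None of either list passed between the CL-fed groups, and none had an unadjusted p under 0.05 there. Cd163, a scavenger receptor of resident macrophages on the Kupffer list, gave -1.07 (SE 0.62, adjusted p = 0.276). When CL + VE replicate 5 was left out, 4 of the 15 macrophage and monocyte markers and none of the 12 Kupffer markers had an unadjusted p under 0.05 for CL + AX against CL + VE, and none passed the adjusted test. Of all genes 12.6% were under 0.05 there. Most markers of both lists thus rose with the CL diet alongside the 9 genes, and their part in the differences from chow was not tested.

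Within the diets, the 2 marker lists tracked the 9 genes to different degrees. After subtraction of the group means, the mean of the macrophage and monocyte markers correlated with the 9-gene mean at r = 0.94 (rho = 0.92, 20 mice), and the mean of the Kupffer markers at r = 0.37 (rho = 0.42). Without the 2 farthest mice the values were 0.90 and 0.46, and without CL + VE replicate 5 alone they were 0.92 and 0.59. In CL + VE replicate 5, the highest CL + VE mouse for the 9 genes, the mean of the macrophage and monocyte markers was 8.52, the highest of its group, while the mean of the Kupffer markers was 8.93, against 8.80 to 9.88 in the other CL + VE mice. Of the other lists, the rest of the programme gave r = 0.96, the TREM2 pathway 0.89, and stellate cell markers and osteopontin receptors 0.82 each. Tetraspanins gave 0.73, metalloproteinases and inhibitors 0.59, and neutrophil and dendritic cell markers 0.52 each. Galectins gave 0.35, Fabp genes 0.31, bile duct markers 0.25, lymphocyte markers 0.19, endothelial markers -0.14, platelet-activating factor genes -0.31 and hepatocyte markers -0.49. Without the 2 farthest mice stellate cell markers gave 0.66. The programme list shares 2 genes with each of the macrophage and TREM2 lists. These values are descriptions over mice that share arrays, and the difference between the lists was not tested.

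**Figure D5:**
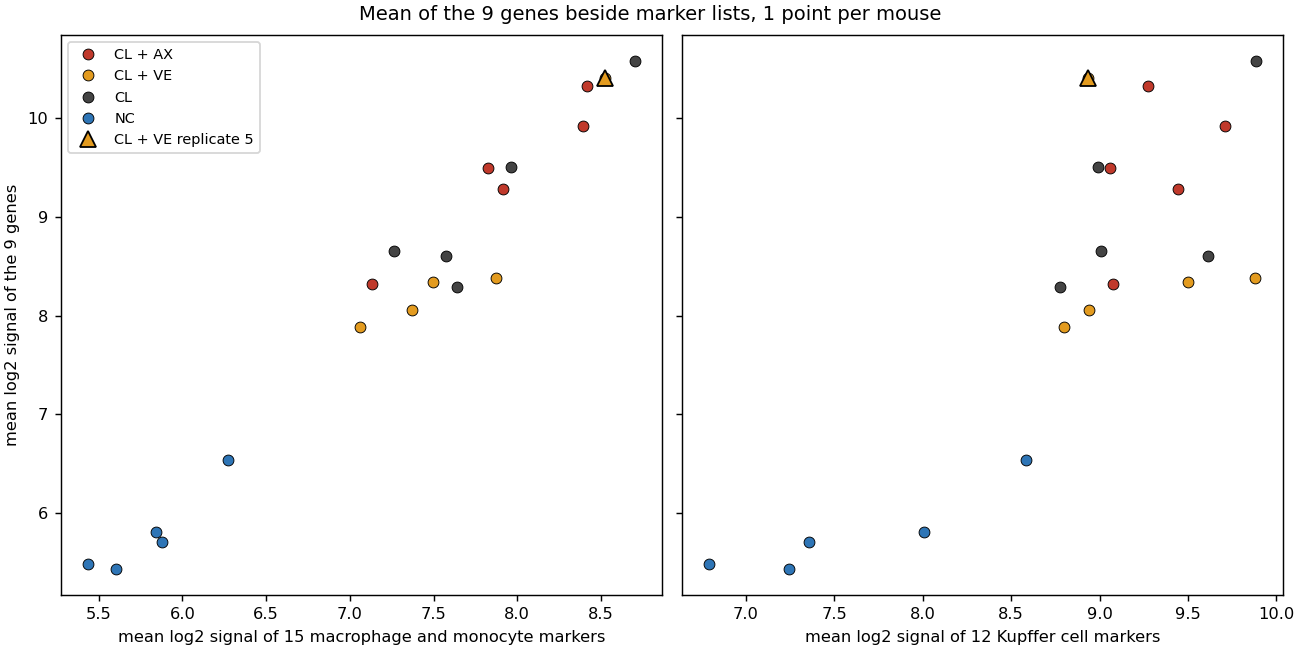
Mean log2 signal of the 9 genes (vertical axis) against the mean log2 signal of 15 macrophage and monocyte markers (left) and of 12 Kupffer cell markers (right), 1 point per mouse, coloured by diet group. The triangle, CL + VE replicate 5, lies high in both 9-gene mean (10.40) and macrophage markers (8.52) but within its group for Kupffer markers (8.93).

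Markers of some other cell types differed as well, but none of 7 dendritic cell markers passed between CL and NC livers. Stellate cell markers rose in 10 of 12 and endothelial markers in 7 of 10 genes between CL and NC livers, lymphocyte markers in 5 of 12 and bile duct markers in 2 of 8 (12% of all genes rose). The duct markers Krt19 (-0.17, adjusted p = 0.865) and Epcam (1.37, adjusted p = 0.182) did not pass. Neutrophil markers gave 0 of 10 in either direction at the adjusted threshold and 1 of 10, higher, at an unadjusted p under 0.05 for CL against NC. Of all genes 35.3% were under 0.05 there, 17.5% being higher. In CL + AX against CL + VE livers the adjusted test called no neutrophil marker, but 3 of 10 had an unadjusted p under 0.05, all higher: Ngp by 1.74 (adjusted p = 0.211), S100a8 by 1.60 (adjusted p = 0.421) and S100a9 by 1.27 (adjusted p = 0.489). Of all genes 10.2% were under 0.05 in that comparison, 3.66% being higher. In CL + AX against CL livers S100a8 (1.36, adjusted p = 0.658) and Mpo (0.84, adjusted p = 0.62) had an unadjusted p under 0.05 (8.05% of all genes did), and the median of the 10 was 0.78. Lower in CL + AX than in CL + VE livers at an unadjusted p under 0.05 were the endothelial markers Clec4g (-0.35, adjusted p = 0.548) and Stab2 (-0.25, adjusted p = 0.538) and the stellate marker Acta2 (-0.89, adjusted p = 0.471). Of all genes 6.59% were lower there. The median of the 12 stellate markers was 0.10 in that comparison. Without CL + VE replicate 5, 4 of the 12 were higher and 1 lower at that threshold, and none passed the adjusted test. Of all genes 4.73% were then higher and 7.84% lower. Clec4g (-0.35, adjusted p = 0.682) and Emcn (-0.68, adjusted p = 0.643) were likewise lower in CL + AX than in CL livers. The mean of the 10 neutrophil markers was 4.02 to 5.83 in CL + AX, 3.92 to 4.52 in CL + VE and 3.67 to 5.15 in CL livers. Its part in the higher means of the 9 genes in CL + AX livers was not tested.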

How the data were processed

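Livers of 20 mice (4 groups of 5) were measured on 1 array each. The deposited intensities are linear MAS5 signals, which the authors computed from the probes of each probe set and analysed in the Subio platform. These signals differ in overall brightness from array to array and between the diet groups. The median signal of an array averaged 27.0 in CL + AX, 18.5 in CL + VE, 22.4 in CL and 15.9 in NC livers. The range was 26.4 to 27.7 in CL + AX and 17.0 to 20.7 in CL + VE arrays. The group means of 7 of 9 genes ran in the same order, and the part of brightness in them was not tested. After removal of 64 control probe sets, the other 45037 were quantile normalized on the log2 scale. Of these, 34945 named 1 gene, 932 several and 9160 none in the platform annotation. The number of arrays limits the precision, and a probe set's signal can hold cross-hybridization.

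The groups were fitted in 1 linear model in limma 3.58.1 under R 4.3.3 (16 residual degrees of freedom, variance prior following the mean signal). P values were adjusted over all probe sets by the Benjamini-Hochberg method at 0.05. The fit was tested on simulated data. The text names the 9 measured genes, set genes of each pathway or marker list, up to 4 further genes of a list with the smallest p, and the 8 genes most like the 9. The genes and lists were chosen with earlier results of these data known. No count of calls over these genes is independent evidence for CL against NC. Alternatives were the scaling, an offset of 16, a filter at the median signal, 2-group fits, 1 prior variance, the mean of all probe sets, the methods' Welch test, a replicate block and leaving out each array or Lyz1. Promoters are RefSeq sequences of GRCm38.p6, and the pair was aligned with Biopython 1.88.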

Additional observations from a re-analysis of the deposited data

Results flagged for a closer look

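Among 40 groups of 5 values (9 genes and their mean in 4 diet groups), 6 held a mouse far from the others of its group, where chance alone gives about 1 group in 20. The groups are not independent, because the same mouse recurs. In CL + VE livers replicate 5 stood apart for Mmp12 (9.59, others 6.10 to 6.40), Gpnmb (11.14, others 7.11 to 7.83), Fabp5 (11.36, others 9.43 to 9.62) and the mean of the 9 genes (10.40, others 7.89 to 8.38). In CL + AX livers replicate 3 was low for Pla2g7 (5.72, others 7.35 to 7.93). In NC livers replicate 5 was low for Fabp5 (8.52, others 10.61 to 11.15).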

How the results depend on the processing

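Under every alternative 0 of 9 genes passed the adjusted test in the 3 comparisons among CL-fed groups. At an unadjusted p under 0.05 the count for CL + AX against CL + VE ran from 0 (median centring, Welch test, replicate block) to 8 (unscaled signals). The shares of all genes under these settings are not given here, so nothing is read from these counts. Leaving out 1 array moved the 9-gene mean between 0.13 (without CL + AX replicate 2) and 0.71 (without CL replicate 2) for CL + AX against CL, between -0.96 and -0.15 for CL + VE against CL, and between 0.64 (without CL + AX replicate 2) and 1.30 for CL + AX against CL + VE. For CL + AX against CL the sign turned for Trem2 with the mean of all probe sets (-0.051), and for Lyz1 (-0.13) and Lyz2 (-0.080) with median centring. Leaving out 1 array there gave -0.024 to 1.28 for Trem2, -0.36 to 0.19 for Pla2g7, -0.084 to 0.29 for Lyz1 and -0.076 to 0.40 for Lyz2, and for Cd9 in CL + VE against CL -0.29 to 0.059. Gpnmb in CL + VE against CL was -0.67 in the main fit and ran from -0.89 to -0.022 over the processing alternatives. Without NC replicate 5 Fabp5 gave -0.21 for CL + AX against NC. The cause was not tested. Without scaling, the median of all genes was 0.38 for CL + AX against CL + VE, and -0.17 with median centring. Arrays with the same replicate number had r between -0.03 and 0.04 over 30 pairs. Of 20 arrays 8 were closest to their own number. The count expected without pairing was not computed, so nothing is read from this count. With the replicate number as a block, 0, 0 and 0 of the 9 genes passed among CL-fed groups. The number of arrays and the low Mmp12 and Trem2 signals in NC livers limit the precision.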
